A study of Mus musculus with 9 samples.

Results

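The genes of the DNA replication machinery were compared between splenic type 2 dendritic cells of young and adult mice. The machinery was taken as 50 genes listed by name, of 24054 genes in the deposited tables. No measured value served as a rule for the choice, but it was made with earlier results of these data known. All 50 were found by symbol in every library, and all 50 passed the filter on low counts that 14452 genes passed. Each was counted with at least 46 reads in every library.

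Gene expression had been measured by mRNA sequencing in 9 libraries, 3 for each of 3 groups. All mice were C57BL/6 with the genotype Clec9a-Cre/Cre Rosa-tdTomato/tdTomato, so that cells with a history of Clec9a expression, a gene of dendritic cell progenitors, carry the fluorescent protein TOMATO (TOM). Live, single, autofluorescence-negative cells positive for MHCII, CD11c and CD11b were sorted from spleen and divided by TOM. The groups were TOM+ cDC2 from mice 8 days old, TOM- DC2 from mice 8 days old and adult TOM+ cDC2, where the mice of library 91 were aged 9 weeks and those of libraries 92 and 95 were aged 8 weeks. Both copies of Clec9a carry Cre in every group, adults included, so all mice lack its functional product, and TOM records a cell's history and not its present Clec9a level. Several young spleens went into each sort and no pooling is stated for adults, so age and pooling cannot be told apart. Libraries are named by the number in their deposited names, which is 81, 91 or 92 in both young groups and 91, 92 or 95 in adults. The study calls the libraries of a group biological replicates, but the labels tie none to animals, so p-values measure the spread between these libraries, which may in part be technical. The study's purpose was to ask how age and origin shape the expression profile of these cells.

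DNA is copied once per cell division, in S phase. The origin recognition complex marks the start sites, Cdc6 and Cdt1 load the ring-shaped MCM helicase there, and in S phase the kinase of Cdc7 and Dbf4, Mcm10, Cdc45 and the GINS complex turn the helicase on. Polymerases with their sliding clamp then copy the strands, single-strand binding proteins protect them, and the cell makes deoxynucleotides to match. Most of these genes are known targets of E2F transcription factors and are transcribed mainly in cells that enter the cycle, which in dendritic cells are mostly precursors and a dividing fraction of the differentiated cells. In bulk RNA, a larger share of cycling cells and more RNA per cycling cell cannot be told apart.

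The libraries held 12783252 to 22809401 reads on genes. The 14 markers of cDC2 were detected in all libraries. Their summed levels were 70360 to 78720 TPM (the level per transcript length that RSEM gives) in young and 111900 to 115200 TPM in adults. By the test used below, 3 were higher and 9 lower in both young groups. Pax5, Cd3e, Elane and Siglech, picked from the lists for other cells, stayed at 1.74 TPM or less. Xcr1, a marker of cDC1, was at 2.43 to 3.79 TPM. Clec9a, at 0.34 TPM or less, cannot show whether cDC1 were present, because both copies carry Cre. Lists for other cells were not at 0 as a whole, with sums over all libraries of 339.1 to 396.8 TPM for cDC1 (mostly Batf3 and Wdfy4), 153.2 to 203.3 TPM for pDC (mostly Bst2 and Spib), 694.3 to 909.4 TPM for monocytes and macrophages (mostly Cd68) and 41.07 to 81.55 TPM for B cells, where Cd79b was at 58.5 to 68.2 TPM in young and 25.3 to 35.6 TPM in adult libraries. A list of 15 erythroid genes summed to 135.5 to 201.9 TPM in young TOM+ cDC2, to 1653, 272.4 and 157.9 TPM in TOM- DC2 libraries 81, 91 and 92, and to 39.34 to 57.58 TPM in adults, where 6 of the 15 were at 0. A list of 9 neutrophil genes reached 47.68 TPM in TOM- library 81 and at most 11.16 TPM elsewhere. A list of 12 progenitor genes summed to 162.4 to 274.0 TPM in young and to 290.1 to 343.0 TPM in adult libraries, and 8 of the 12 were under 1 TPM throughout each group. Most of the sum was Kit, at 145.1 to 250.2 TPM in young and 278.8 to 333.8 TPM in adult libraries. For 8 of the 12 the counts were enough for the test against adults. Of those tested, 1 was higher and 1 lower in young TOM+ cDC2, where 21.0% of all genes were higher and 19.5% lower. In TOM- DC2, 3 were higher and 1 lower, where 19.4% of all genes were higher and 16.9% lower. TOM- library 81 thus stood apart in the erythroid and neutrophil lists. The part of RNA of these other cells in the results was not tested, and the main counts that involve TOM- DC2 are also given without that library.

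As a whole, the machinery was more highly expressed in both young groups than in adults. The summed level of the 50 genes was 4159, 3951 and 3871 TPM in young TOM+ libraries 81, 91 and 92, and 3755, 3568 and 3565 TPM in the matching TOM- libraries. It was 1969, 2113 and 1934 TPM in adult libraries 91, 92 and 95. All young libraries lay above all adult libraries, and the 3 TOM+ libraries lay above the 3 TOM- libraries. The ratio of the group means was 1.99 for TOM+ cDC2 and 1.81 for TOM- DC2 against adults, and 1.10 for TOM+ cDC2 against TOM- DC2. Gene by gene, 44 of the 50 members were higher in young than in adult TOM+ cDC2 at an adjusted p under 0.05 (edgeR's quasi-likelihood test, Benjamini-Hochberg adjustment over 14452 genes), a result found for 21.0% of all genes, and no member was lower, which 19.5% of all genes were. A log2 fold change (log2FC) above 1, the size the study used to call genes, was also reached by 24 members, against 5.96% of all genes. In 46 members the 3 young and 3 adult libraries did not overlap in scaled counts with the young ones higher, against 27.1% of all genes. The median log2FC was 0.97 over the members and 0.05 over all genes tested, and 50 of the 50 members had a log2FC above 0. With scaling by library size alone, in place of TMM factors, which allow for RNA composition, the median of all genes shifted to 0.25. There 49 members were higher, and so were 4790 of all 14452 genes, against 3039 in the main fit.

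The same held for TOM- DC2 against the same 3 adult libraries. Of the 50 members 42 were higher in young TOM- DC2, against 19.4% of all genes, 10 of them by a log2FC above 1, against 6.5% of all genes, and 44 did not overlap, against 26.1%. The median log2FC was 0.77 over the members and 0.07 over all genes. Without TOM- library 81, 41 members were higher, as were 2646 of all 14452 genes. In that setting 46 members did not overlap, against 31.9% of all genes. With library size alone the median of all genes was 0.29, and 24 members had a log2FC above 1. The share of all genes above that size was not computed there. At an adjusted p under 0.05, 5010 of all 14452 genes were higher there, against 2809 in the main fit. Both comparisons use the adult libraries as their base and are given side by side for that reason, not as separate evidence.

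**Figure D1:**
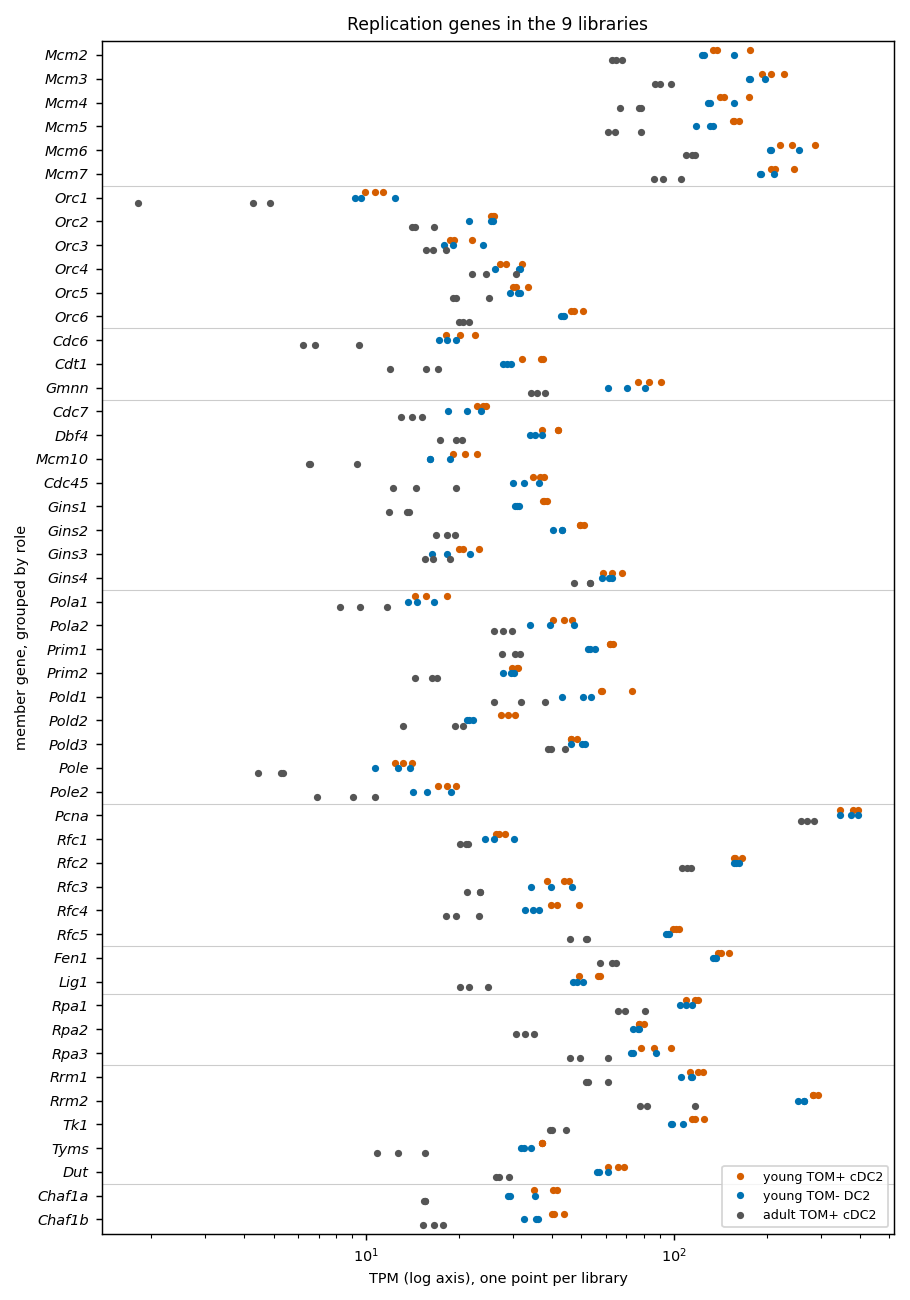
Level of each of the 50 replication genes in TPM (log axis), with genes grouped by role and 1 point per library, 3 for each of young TOM+ cDC2, young TOM- DC2 and adult TOM+ cDC2. For 49 of the 50 genes the 3 young TOM+ libraries lie above the 3 adult libraries, Orc4 being the exception. The share of all genes for which this held in TPM was not computed. In scaled counts it held for 46 members, against 27.1% of all genes.

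The helicase genes rose together. Mcm2 to Mcm7 encode the 6 subunits of the ring that unwinds DNA, and their log2FC in young against adult TOM+ cDC2 lay between 0.93 and 1.10. Mcm2 (chr6:88883474-88898780, GRCm38.p6) was at 176, 138 and 133 TPM in young TOM+ libraries 81, 91 and 92, at 156, 123 and 125 TPM in the TOM- libraries and at 62.7, 64.9 and 67.8 TPM in adults. Mcm3 was at 227, 207 and 193 TPM in young TOM+ libraries, at 197, 174 and 176 TPM in TOM- libraries and at 89.8, 97.3 and 86.5 TPM in adults. For both genes every young library was above every adult one, and library 81 was the highest of each young group. Mcm4 was at 175, 141 and 145 TPM in young TOM+ libraries, at 156, 129 and 131 TPM in TOM- libraries and at 66.8, 78.2 and 76.7 TPM in adults. Its log2FC of 0.93 ± 0.09 (SE; edgeR adjusted p = 1.02e-05) was the lowest of the 6, but lay within 2 SE of the others.

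Of the 6 genes, only Mcm5 had 3 levels that did not overlap in TPM. In scaled counts the TOM+ and TOM- libraries of Mcm3, Mcm4 and Mcm7 did not overlap either. Mcm5 was at 163, 155 and 156 TPM in young TOM+ libraries, at 131, 118 and 133 TPM in TOM- libraries and at 64.1, 78.1 and 61.2 TPM in adults. All 3 groups were separate in these values, in the order TOM+ cDC2, TOM- DC2, adult, and its log2FC was 1.10 ± 0.10 for TOM+ cDC2 (edgeR adjusted p = 7.37e-06) and 0.76 ± 0.10 for TOM- DC2 (edgeR adjusted p = 0.000136). Mcm6, the most highly expressed of the 6, was at 286, 241 and 221 TPM in young TOM+ libraries, at 254, 204 and 206 TPM in TOM- libraries and at 114, 117 and 109 TPM in adults. Mcm7 was at 245, 213 and 207 TPM in young TOM+ libraries, at 212, 191 and 191 TPM in TOM- libraries and at 86.2, 105 and 91.99 TPM in adults. For both, young and adult libraries did not overlap, whereas the TOM+ and TOM- libraries did in TPM. In scaled counts the TOM+ and TOM- libraries overlapped for Mcm6 and not for Mcm7. Summed over the 6 genes, the level was 1141 ± 116 TPM (SD, n = 3) in young TOM+ cDC2, 1003 ± 90.3 TPM in TOM- DC2 and 506 ± 30.1 TPM in adults, and library 81 had the highest sum in both young groups.

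The sequences before 3 of these genes' start sites are shown because the E2F motif was found there at genes that rose and at a gene that did not pass the test. Promoters were taken from RefSeq (GRCm38.p6, 250 bases before to 50 after a start), which held 51 promoters of 42 members. The motif was searched on both strands in 4 spellings, TTTCCCGC, TTTCGCGC, TTTGCCGC and TTTGGCGC, and matches may overlap each other, as both strands of TTTGGCGCGAAA match. It was found in 15 of 51 member promoters (29.4%), each of another gene, and in 2.26% of all 32851 promoters. The sequence CCAAT, searched on both strands as well, was in 26 of 51 (51.0%) and in 37.4% of all. Each line gives the bases from 20 before the first match toward the start, with matches in capitals, and leaves out any base of an annotated transcript or of the gene's span.
Mcm5 (chr8:75109336-75109467, plus strand): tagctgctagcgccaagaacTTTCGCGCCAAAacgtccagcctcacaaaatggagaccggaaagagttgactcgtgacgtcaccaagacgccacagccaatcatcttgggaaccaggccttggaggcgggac
Mcm6 (chr1:128359706-128359835, minus strand): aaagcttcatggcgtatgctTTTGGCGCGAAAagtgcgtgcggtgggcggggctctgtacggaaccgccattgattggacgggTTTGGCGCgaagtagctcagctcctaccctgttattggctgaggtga
Orc3 (chr4:34614964-34615003, minus strand): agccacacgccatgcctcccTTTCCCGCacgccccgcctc
Mcm5 held 2 overlapping matches, 153 and 149 bases before the start, and Mcm6 held 3, of which the last lay 47 bases before it. Orc3, whose log2FC was 0.11 ± 0.09 in TOM+ cDC2, held 1 match 41 bases before its start. Of the 15 members with the motif, 12 passed the test in young against adult TOM+ cDC2 and the median log2FC was 1.01, and of 27 members with promoters but no match 25 passed and the median was 0.96. Orc3, Gins3 and Pold3 were the members with the motif that did not pass. Mcm4, Gmnn, Gins1, Gins2, Gins4, Prim2, Pole and Rfc2 had no entry.

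The subunits of the origin recognition complex did not move together. Orc1, the subunit whose level follows the cell cycle, was at 9.94, 11.4 and 10.7 TPM in young TOM+ libraries 81, 91 and 92, at 9.18, 12.4 and 9.58 TPM in TOM- libraries and at 1.81, 4.28 and 4.86 TPM in adults. Every young library was above every adult one, at a log2FC of 1.33 ± 0.25 (edgeR adjusted p = 0.00116) in TOM+ cDC2, and adult library 91 was the lowest. Orc6 rose by 1.05 ± 0.09 on the log2 scale, Orc2 by 0.66 ± 0.09 and Orc5 by 0.46 ± 0.11. Orc4, in contrast, was at 32.0, 28.4 and 27.3 TPM in young TOM+ libraries, at 31.3, 31.6 and 26.3 TPM in TOM- libraries and at 30.6, 22.1 and 24.5 TPM in adults. Its groups overlapped, and its log2FC of 0.03 ± 0.12 (edgeR adjusted p = 0.864) was the smallest of the 50. Orc3 was at 22.1, 18.6 and 19.3 TPM in young TOM+ libraries, at 23.9, 17.9 and 19.1 TPM in TOM- libraries and at 16.4, 15.7 and 18.2 TPM in adults. It did not pass either (edgeR adjusted p = 0.362), and its scaled counts overlapped. In TOM- DC2 the order was alike, with Orc1 at 1.25 ± 0.25, Orc6 at 0.88 ± 0.09, Orc2 at 0.54 ± 0.09, Orc5 at 0.39 ± 0.11, Orc3 at 0.13 ± 0.09 and Orc4 at 0.04 ± 0.12.

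All 3 licensing genes rose. Cdc6, the loader of the helicase, was at 22.5, 20.2 and 18.1 TPM in young TOM+ libraries, at 19.6, 18.3 and 17.3 TPM in TOM- libraries and at 6.84, 9.47 and 6.25 TPM in adults. Its lowest young library thus had 17.3 TPM and its highest adult library 9.47 TPM, and its log2FC was 1.34 ± 0.14 (edgeR adjusted p = 1.61e-05) in TOM+ cDC2. Cdt1, which works with Cdc6, had a log2FC of 1.13 ± 0.13. Gmnn, which encodes geminin, the protein that blocks Cdt1 after licensing, was at 90.7, 82.7 and 76.2 TPM in young TOM+ libraries, at 80.2, 70.3 and 61.2 TPM in TOM- libraries and at 38.0, 35.9 and 34.2 TPM in adults. Its log2FC of 1.06 ± 0.10 was close to that of the loaders, and young and adult libraries were apart.

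Among the 8 genes that activate the helicase, the 4 subunits of GINS were split. Gins1 (chr2:150909556-150931280) was at 37.6, 37.7 and 38.7 TPM in young TOM+ libraries, at 30.3, 31.0 and 31.3 TPM in TOM- libraries and at 13.6, 13.8 and 11.9 TPM in adults. The 3 groups did not overlap, and the log2FC of 1.40 ± 0.13 (edgeR adjusted p = 4.84e-06) was the highest of the role. Gins2 rose by 1.32 ± 0.11. Gins4 was at 62.8, 58.7 and 67.7 TPM in young TOM+ libraries, at 63.0, 58.5 and 61.5 TPM in TOM- libraries and at 47.4, 53.1 and 53.3 TPM in adults, so that its young libraries lay above the adult ones in TPM, but its log2FC was 0.17 ± 0.09 (edgeR adjusted p = 0.154). Gins3 was at 23.2, 20.02 and 20.6 TPM in young TOM+ libraries, at 21.8, 16.4 and 18.3 TPM in TOM- libraries and at 15.6, 16.5 and 18.7 TPM in adults. Only its TOM+ libraries cleared the adult ones, at a log2FC of 0.19 ± 0.11 (edgeR adjusted p = 0.188). In TOM- DC2, Gins3 was at -0.02 ± 0.11, the 1 member with a value below 0 in that comparison. Mcm10 rose by 1.35 ± 0.13, and Cdc45, which completes the active helicase with GINS and the MCM ring, by 1.10 ± 0.16. Dbf4 and Cdc7, the 2 subunits of the activating kinase, rose by 0.96 ± 0.11 and 0.62 ± 0.10.

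Within the polymerases, too, subunits of 1 enzyme differed. Pole, the catalytic subunit of the leading strand polymerase epsilon, was at 14.1, 12.4 and 13.2 TPM in young TOM+ libraries, at 13.8, 10.7 and 12.7 TPM in TOM- libraries and at 4.46, 5.35 and 5.27 TPM in adults. Young and adult libraries were apart, with a log2FC of 1.26 ± 0.10 (edgeR adjusted p = 2.42e-06). Pole2, its partner, rose by 0.91 ± 0.14. Of the subunits of this enzyme outside the members, Pole3 rose by 0.64 ± 0.14 and Pole4 was at 0.02 ± 0.09 (edgeR adjusted p = 0.905). Polymerase delta, which copies the lagging strand, had a graded response: its catalytic subunit Pold1 rose by 0.86 ± 0.14, Pold2 by 0.58 ± 0.14, and Pold3 had a log2FC of 0.06 ± 0.08 (edgeR adjusted p = 0.537). Its subunit Pold4, which is not among the members, was at -0.19 ± 0.12 (edgeR adjusted p = 0.246). Pold3 was at 48.2, 46.1 and 46.2 TPM in young TOM+ libraries, at 51.4, 46.1 and 50.2 TPM in TOM- libraries and at 38.9, 39.8 and 44.2 TPM in adults. Its scaled counts overlapped between young TOM+ and adult libraries. Primase, which lays the RNA primers, rose in both subunits (Prim1 by 0.94 ± 0.10, Prim2 by 0.83 ± 0.10), and polymerase alpha, which extends them, by less (Pola1 by 0.56 ± 0.13, Pola2 by 0.51 ± 0.10).

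The result for the clamp itself depended on the unit. Pcna (chr2:132249286-132253180), the ring that holds polymerases on DNA, had the highest TPM of all members, 346, 395 and 380 TPM in young TOM+ libraries, 346, 396 and 374 TPM in TOM- libraries and 257, 285 and 269 TPM in adults. All young libraries were above the adult ones in TPM, whereas the scaled counts of reads that map once overlapped, and the log2FC was 0.26 ± 0.11 (edgeR adjusted p = 0.0710) in TOM+ cDC2 and 0.25 ± 0.11 (edgeR adjusted p = 0.0875) in TOM- DC2. Pcna is uncertain, because RSEM, which divides reads that match several transcripts, assigned it 2.93 times the reads counted by STAR at single positions. With RSEM's counts, the log2FC was 0.31 ± 0.10 (edgeR adjusted p = 0.0327) in TOM+ cDC2 and 0.27 ± 0.10 (edgeR adjusted p = 0.0589) in TOM- DC2. With limma on log2(TPM + 1), it was 0.46 ± 0.07 (limma adjusted p = 0.00103) and 0.46 ± 0.07 (limma adjusted p = 0.00122), past the test in both. The same ratio was 1.51 for Mcm7, 1.41 for Tk1, 1.30 for Rpa3 and 1.20 for Rfc5, and 0.931 to 1.14 for the other 45 members. The 5 subunits of replication factor C, which load the clamp, all rose in TOM+ cDC2, from 0.28 ± 0.08 for Rfc1 (edgeR adjusted p = 0.0143) through Rfc2 (0.41 ± 0.08), Rfc3 (0.74 ± 0.11) and Rfc5 (0.95 ± 0.09) to 0.95 ± 0.12 for Rfc4. Rfc4 was at 49.2, 41.5 and 40.0 TPM in young TOM+ libraries, at 36.3, 34.7 and 32.9 TPM in TOM- libraries and at 23.3, 19.5 and 18.2 TPM in adults, 3 levels that did not overlap. Rfc1 and Pold2 were the members that passed in TOM+ cDC2 and not in TOM- DC2, with log2FC of 0.21 ± 0.08 (edgeR adjusted p = 0.0540) and 0.15 ± 0.15 (edgeR adjusted p = 0.436) there. The difference between TOM+ and TOM- had an edgeR adjusted p of 0.916 for Rfc1 and 0.260 for Pold2, and with libraries paired by number, as described below, of 0.639 and 0.00744.

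**Figure D2:**
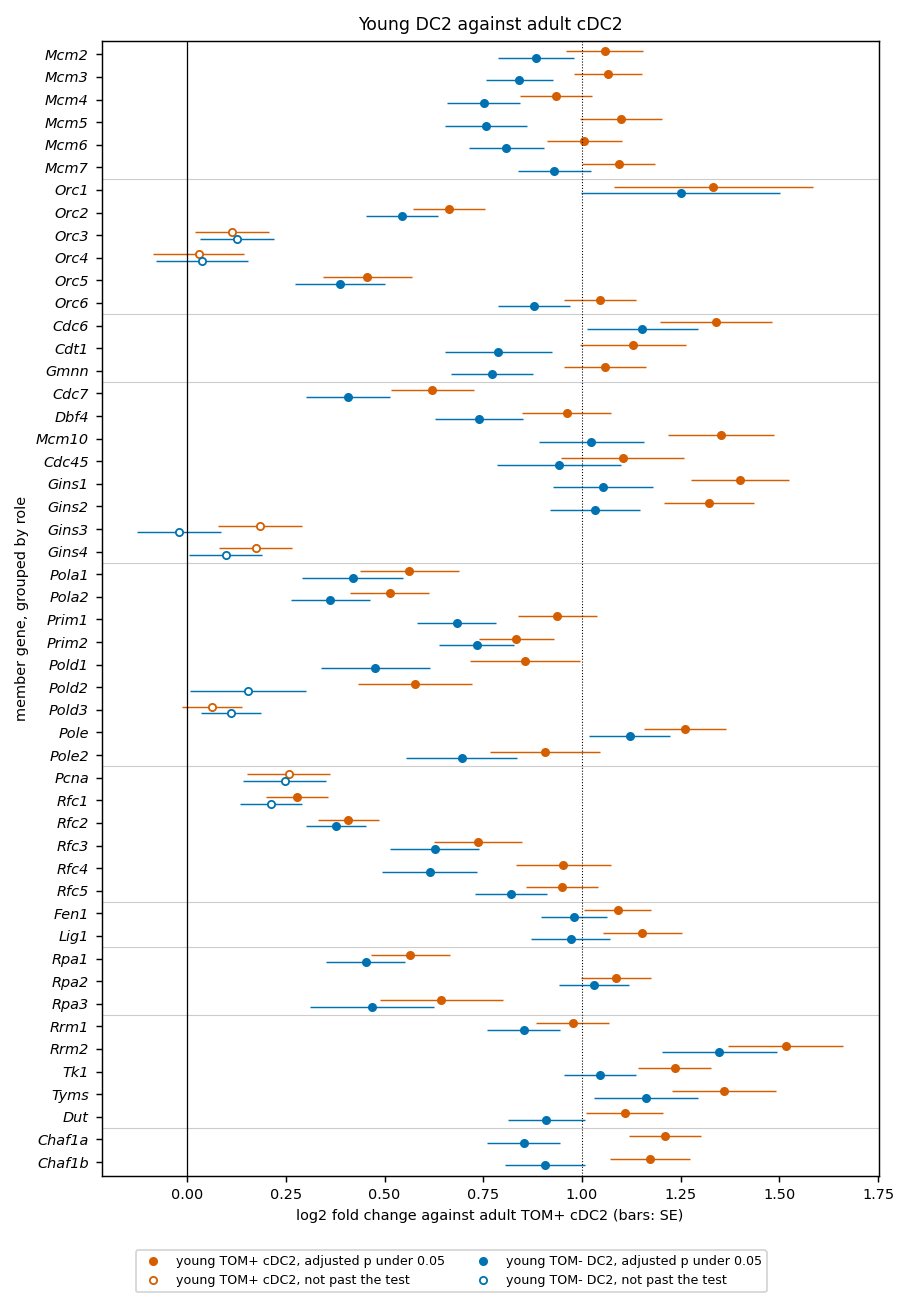
Log2 fold change of each member in young TOM+ cDC2 and in young TOM- DC2 against the same 3 adult TOM+ cDC2 libraries, with bars of 1 SE. Open points did not pass edgeR's test, and the dotted line marks a log2FC of 1, which 24 and 10 members passed. Points of the MCM genes lie close together, those of the origin recognition complex and of GINS are spread out.

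The genes that finish the lagging strand rose together, Fen1, the nuclease that trims flaps, by 1.09 ± 0.08 and Lig1, the ligase that seals nicks, by 1.15 ± 0.10. Fen1 was at 151, 138 and 141 TPM in young TOM+ libraries, at 137, 133 and 136 TPM in TOM- libraries and at 63.0, 64.8 and 57.6 TPM in adults. Lig1 was at 56.5, 57.4 and 49.1 TPM in young TOM+ libraries, at 50.7, 46.9 and 48.5 TPM in TOM- libraries and at 21.6, 24.9 and 20.1 TPM in adults. In both genes the young libraries lay far above the adult ones. The single-strand binding trimer RPA was uneven, at 1.09 ± 0.09 for Rpa2, 0.64 ± 0.16 for Rpa3 and 0.57 ± 0.10 for Rpa1. Rpa1, the subunit with the highest level, was at 117, 120 and 109 TPM in young TOM+ libraries, at 110, 114 and 105 TPM in TOM- libraries and at 80.2, 69.4 and 65.5 TPM in adults. Rpa2 was at 79.6, 76.6 and 76.6 TPM in young TOM+ libraries, at 73.5, 76.2 and 76.9 TPM in TOM- libraries and at 30.6, 35.0 and 32.9 TPM in adults. Young and adult libraries did not overlap for either, and the young groups overlapped. The 2 larger subunits of chromatin assembly factor 1, which places histones behind the fork, rose by 1.21 ± 0.09 (Chaf1a) and 1.17 ± 0.10 (Chaf1b). Chaf1a was at 41.7, 40.5 and 35.2 TPM in young TOM+ libraries, at 35.4, 29.0 and 29.3 TPM in TOM- libraries and at 15.4, 15.5 and 15.6 TPM in adults. Chaf1b was at 43.9, 40.7 and 40.1 TPM in young TOM+ libraries, at 32.6, 35.6 and 36.1 TPM in TOM- libraries and at 16.6, 15.3 and 17.8 TPM in adults. Adults were lowest in both genes, and TOM+ and TOM- libraries of Chaf1a overlapped slightly in TPM but not in scaled counts.

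Nucleotide supply had the highest ratio of young to adult level. The 5 members that make deoxynucleotides summed to 625 ± 11.2 TPM (SD, n = 3) in young TOM+ cDC2, 563 ± 9.92 TPM in TOM- DC2 and 229 ± 33.2 TPM in adults, a ratio of 2.73 and 2.46, the highest of the 10 roles in both comparisons. The clamp and its loader had ratios of 1.52 and 1.48, or 1.68 and 1.60 without Pcna, and the origin recognition complex had 1.60 and 1.54. Rrm2 (chr12:24708254-24714146), the regulatory subunit of ribonucleotide reductase that limits its activity, was at 282, 281 and 293 TPM in young TOM+ libraries, at 253, 263 and 265 TPM in TOM- libraries and at 81.4, 116 and 77.2 TPM in adults. Its log2FC of 1.52 ± 0.15 (edgeR adjusted p = 8.36e-06) was the highest of the 50 members, though within 2 SE of that of Gins1, and adult library 92 was the highest of the adults. Rrm1, the large subunit, changed by less, from 52.5, 61.2 and 51.8 TPM in adults to 124, 113 and 120 TPM in young TOM+ and 115, 105 and 114 TPM in TOM- libraries, at a log2FC of 0.98 ± 0.09. Tyms, which makes thymidylate, rose by 1.36 ± 0.13, Tk1, the thymidine kinase of S phase, by 1.24 ± 0.09, and Dut, which removes dUTP, by 1.11 ± 0.10.

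**Figure D3:**
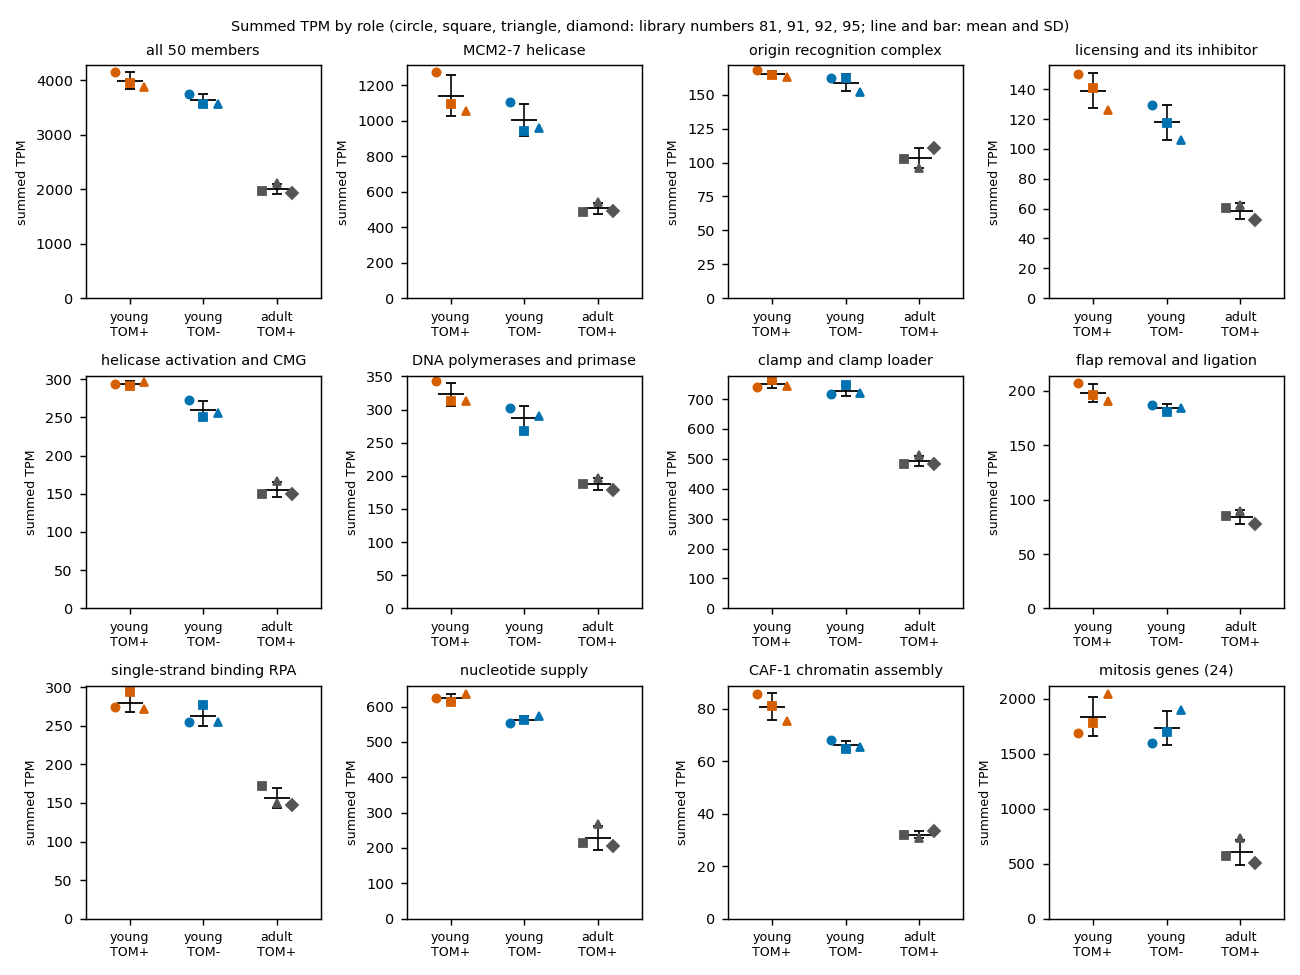
Summed TPM of the members of each of 10 roles, of all 50 members and of 24 mitosis genes, with 1 symbol per library (the shape gives its number) and lines for the group mean and SD, n = 3. Axes start at 0. Every panel shows both young groups above adults, and MCM sums are highest in library 81 and mitosis sums in library 92 of both young groups.

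Other genes of the pathway were described from lists that do not include the members. Of 29 factors of fork, checkpoint and origin firing, 19 were higher and 2 lower in young than in adult TOM+ cDC2. Clspn, which carries the checkpoint signal at the fork, rose by 1.62 ± 0.20, Wdhd1, a fork scaffold, by 1.48 ± 0.09 and Ticrr, an origin firing factor, by 1.46 ± 0.17, whereas Donson fell by 0.44 ± 0.10 and Top1, the topoisomerase that relaxes DNA, fell by 0.37 ± 0.12. Of 12 chromatin and methylation factors 10 were higher and 0 lower, with Uhrf1, which guides maintenance methylation, at 1.41 ± 0.13, the histone chaperone Asf1b at 1.40 ± 0.14 and Tonsl at 1.11 ± 0.20. In TOM- DC2 the counts were 18 higher and 1 lower of 29, and 10 and 0 of 12, or 17 and 2, and 10 and 0, without TOM- library 81.

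In nucleotide metabolism outside the members, 13 of 20 genes were higher and 5 lower in young TOM+ cDC2, and the lower share, 25.0%, was near the 19.5% of all genes. Shmt1, which serves the folate cycle of thymidylate synthesis, rose by 1.67 ± 0.13, and Atic, which ends purine synthesis, by 1.63 ± 0.21. Samhd1, the enzyme that breaks down deoxynucleotides and is abundant in myeloid cells that do not divide, was lower, going from 236, 260 and 245 TPM in adult libraries 91, 92 and 95 to 146, 126 and 135 TPM in young TOM+ and 158, 137 and 137 TPM in TOM- libraries 81, 91 and 92. No young library reached the adult level, and Samhd1 fell by 1.01 ± 0.08 (edgeR adjusted p = 2.01e-06) in TOM+ cDC2 and by 0.95 ± 0.08 (edgeR adjusted p = 4.36e-06) in TOM- DC2. Cmpk2 and Tk2, which supply nucleotides to mitochondria, fell by 0.80 ± 0.18 and 0.53 ± 0.11. In TOM- DC2, 11 genes of this list were higher and 5 lower, with or without TOM- library 81.

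Of 18 E2F and RB factors 11 were higher and 3 lower in young TOM+ cDC2, a lower share of 16.7% that was under that of all genes. Mybl2, which with its partners turns on later cell cycle genes, rose by 1.97 ± 0.15, from 4.89, 5.79 and 4.68 TPM in adults to 21.8, 21.8 and 19.5 TPM, and the repressors E2f8 and E2f7, themselves expressed in S phase, by 1.70 ± 0.15 and 1.28 ± 0.15. Rb1, Lin37 and Rbl2, parts of the complexes that hold E2F targets off in resting cells, fell by 0.47 ± 0.12, 0.37 ± 0.10 and 0.34 ± 0.11. Other parts of such complexes rose, Rbl1 by 0.49 ± 0.08, Lin9 by 1.16 ± 0.155, E2f5 by 0.61 ± 0.17 and Tfdp1 by 1.05 ± 0.08. In TOM- DC2, Rbl2 was at 0.04 ± 0.10 (edgeR adjusted p = 0.805). The complexes as a whole thus did not move in 1 direction. Of 10 S-phase cyclins and regulators 7 were higher and 1 lower, with Ccne2, a cyclin of S-phase entry, at 1.64 ± 0.17, Fbxo5 at 1.58 ± 0.13 and Ccna2 at 1.45 ± 0.19, and with Cdkn2c, an inhibitor of G1 kinases, at -0.62 ± 0.13. All 24 mitosis genes were higher, with a median log2FC of 1.47, Kif20a at 1.78 ± 0.18, Ube2c at 1.75 ± 0.20 and Ccnb1 at 1.73 ± 0.21 leading. In TOM- DC2, 10 of the 18 were higher and 2 lower, 7 of the 10 higher and 1 lower, and all 24 higher, with a median of 1.32. Without TOM- library 81 these counts were 10 and 1, 7 and 1, and 24 and 0. Mitosis genes summed to 1693, 1786 and 2041 TPM in young TOM+ libraries 81, 91 and 92, to 1597, 1704 and 1901 TPM in TOM- libraries and to 571, 731 and 511 TPM in adult libraries 91, 92 and 95. In both young groups library 81, the highest for the MCM genes, was the lowest here.

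Between the young groups the members differed by little, and mostly in 1 direction. No member passed edgeR's test for TOM+ cDC2 against TOM- DC2, in a comparison where 0.125% of all genes were higher and 213 genes lower. DESeq2 called 1 member, Chaf1a, and limma on log2(TPM + 1) and on log2(TPM + 0.1) called 0. The log2FC ranged from -0.05 for Pold3 to 0.42 for Pold2, with a median of 0.17 over the members and 0.00 over all genes, and 47 of the 50 were above 0, against 50.3% of all genes. In 29 members the 3 TOM+ libraries all lay above the 3 TOM- libraries in scaled counts, against 7.36% of all genes, and in TPM this held for 18 members, against 5.0% of all genes. Without TOM- library 81 it held for 34 members in scaled counts, against 13.0% of all genes.

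Young libraries with the same number deviated together from their group means, so the TOM+ and TOM- libraries were also compared as pairs. TOM+ cDC2 was the higher of the pair in all 3 pairs for 42 members, against 21.7% of all genes, and in both pairs 91 and 92 for 45 members, against 30.2%. The median log2 ratio over the members was 0.19 in pair 81, 0.18 in pair 91 and 0.16 in pair 92. With the number as a block in the fit, 12 members were higher in TOM+ cDC2 (edgeR adjusted p under 0.05), against 2.23% of all genes, and none lower. These were Mcm3, Mcm5 and Mcm6 of the helicase, Cdt1 and Gmnn of licensing, Mcm10 and Gins1 of activation, Prim1, Pold1 and Pold2 of the polymerases, Rfc4 and Chaf1a. This block also ties adult libraries 91 and 92 to young libraries with which they share only a number. In a fit of the 6 young libraries alone with the block, added after the data were seen, 23 members passed, against 4.99% of all genes. Without TOM- library 81, 2 (Mcm5 and Chaf1a) passed in the fit with adults, against 0.913% of all genes, but that fit leaves TOM+ library 81 without its pair. With pairs 91 and 92 alone 11 passed, against 3.18%. Both fits were also added after the data were seen, and why their counts differ was not tested.

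Mcm5 had the lowest adjusted p of them. Its log2 ratio of TOM+ to TOM- was 0.35, 0.42 and 0.26 in pairs 81, 91 and 92, and the blocked log2FC was 0.34 ± 0.06 (edgeR adjusted p = 0.00139). Pold2 (chr11:5872180-5878256), singled out after its values were seen because it had not passed in TOM- DC2, was at 30.4, 28.8 and 27.4 TPM in young TOM+ libraries, at 21.5, 22.2 and 21.3 TPM in TOM- libraries and at 19.4, 20.6 and 13.1 TPM in adults. These TOM- libraries lay between the other groups, close to adult libraries 91 and 92, and the blocked log2FC was 0.42 ± 0.09 (edgeR adjusted p = 0.00744). Pold1 had a blocked value of 0.38 ± 0.07 and Chaf1a of 0.36 ± 0.07, both with an edgeR adjusted p of 0.00442. The members with the smallest blocked values were Orc4 (-0.00 ± 0.07), Orc3 (-0.01 ± 0.06), Pcna (0.01 ± 0.06) and Pold3 (-0.05 ± 0.06), which had not passed against adults either. Of the mitosis genes, 1 of 24 (4.2%) was higher and 0 were lower with the block, where 2.23% of all genes were higher. In all 3 pairs 15 of them (62.5%) were higher in TOM+ cDC2, against 21.7% of all genes.

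**Figure D4:**
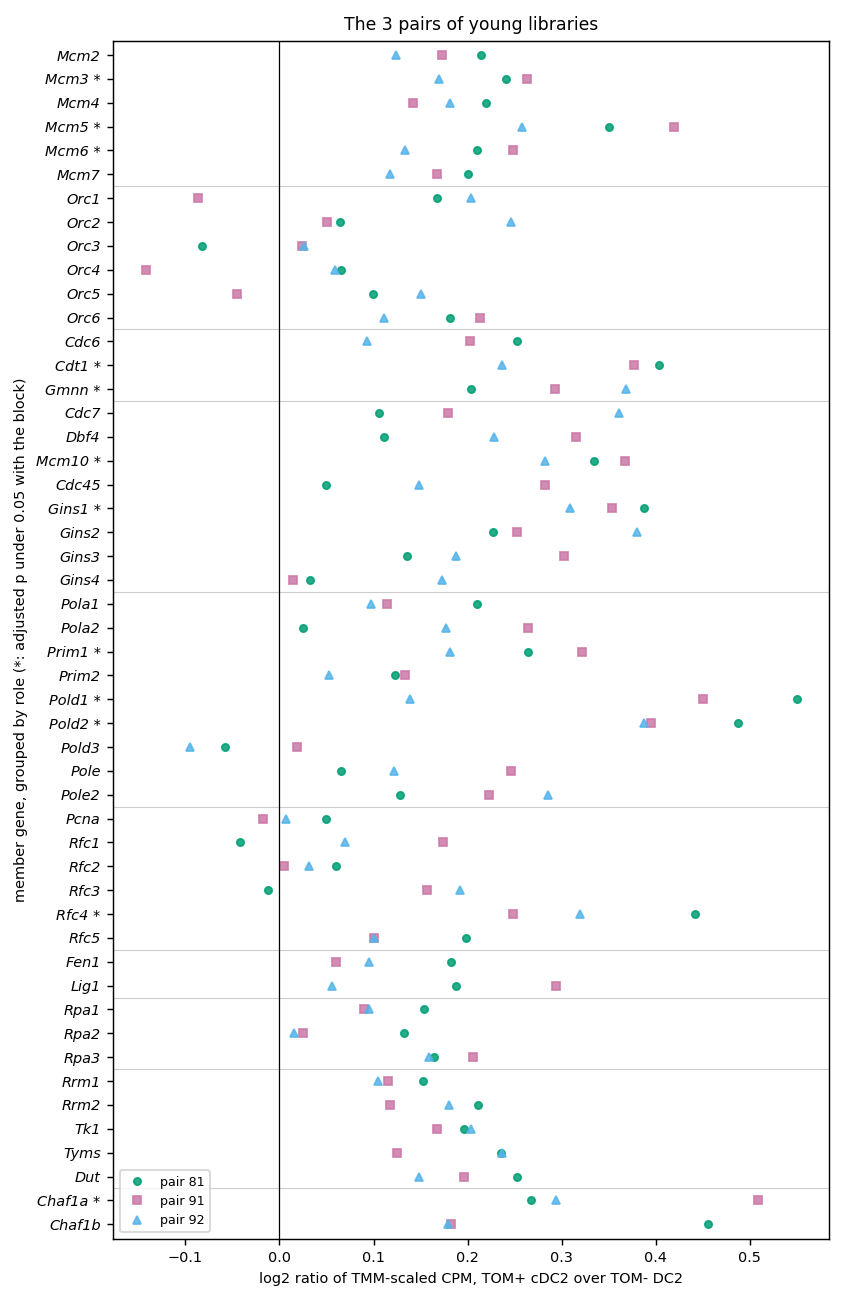
Log2 ratio of TMM-scaled counts, young TOM+ cDC2 over young TOM- DC2, for each member in the 3 pairs of libraries that share a number. Stars mark the 12 members that passed with the number as a block. In 42 members all 3 points lie to the right of 0.

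Markers of other cells moved with TOM in the young groups. By edgeR's test, 1 of 8 cDC1 genes, 1 of 6 B cell genes and 2 of 7 NK and innate lymphoid genes tested were lower in TOM+ cDC2, against 1.47% of all genes. Of 11 monocyte and macrophage genes, C1qa, C1qb, C1qc, Spic, Vcam1 and Mertk lay higher in TOM- DC2 without overlap in TPM, C1qb, a complement subunit of macrophages, at 64.6 to 78.3 TPM against 35.8 to 50.7 TPM in TOM+ cDC2, whereas Ccr2 lay lower, and none of the 11 passed the test. Gata3, a factor of T cells and innate lymphoid cells, was at 2.12 to 2.52 TPM in TOM- DC2 and at 0.46 TPM or less in both other groups. Of 10 NK and innate lymphoid genes, summed levels were 318.9 to 487.2 TPM in TOM+ cDC2 and 454.2 to 675.4 TPM in TOM- DC2, nearly all of it Id2, and Il22 was at 0 in all libraries. Their part in the difference between TOM+ cDC2 and TOM- DC2 was not tested. Without TOM- library 81, the library with the most erythroid RNA, no member passed, in a fit where 11 of all 14452 genes were higher and 199 lower.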

How the data were processed

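RNA of sorted cells had been amplified with SMART-seq v4, which does not keep strand, and sequenced in single-end reads. The authors aligned reads to mm10 with STAR and deposited its raw counts per gene, of which the column that ignores strand was used. They also deposited RSEM expected counts and TPM per gene, where reads that match several transcripts are divided. Tool versions are not given in the sources used here.

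Rows that name no gene (26.1 to 31.6% of reads) were left out. Counts were tested with edgeR 4.0.16 (R 4.3.3) by quasi-likelihood with TMM factors, in 9 libraries with 3 groups, over the 14452 genes whose counts averaged 1 or more. Passing means a Benjamini-Hochberg adjusted p under 0.05. TMM factors were 1.025 to 1.0849 in young and 0.8938 to 0.9275 in adult libraries, and reads outside genes were 8.84 to 12.8% and 15.2 to 17.1%. DESeq2 1.42.0, limma 3.58.1 on log2 TPM with a pseudocount of 1 or 0.1, rounded RSEM counts, other scalings and filters, a replicate block and leaving out each library were tried, and the test was tested on simulated data. Library numbers were taken to pair the young libraries, since deviations from the group means correlated at 0.649, 0.393 and 0.442 for numbers 81, 91 and 92. Between adult and young libraries of 1 number the correlation was 0.01 to 0.12. Those numbers do not pair adults with young libraries.

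Members, gene lists and tests were chosen with earlier results of these data known. Values in every library are given for the MCM genes, the highest and lowest log2FC of each role and members that did not pass, and for the other lists the 3 largest rises and falls with an average count of at least 50. Promoters came from RefSeq tables, and gene coordinates from an annotation of GRCm38.p6. Some genes that this rule or the marker lists would name are not reported here.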

Additional observations from a re-analysis of the deposited data

How the results depend on the processing

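In young against adult TOM+ cDC2 the count of members that passed, 44, was 44 to 49 under the other scalings, filters, tools and units, 45 with the replicate block and 43 to 45 with 1 library left out. The 49 came with library size only, where 4790 of all 14452 genes were higher, against 3039 in the main fit. The share of all genes above a log2FC of 1 was not computed for the alternative settings. The count above a log2FC of 1, 24, was 18 with the replicate block, 30 and 31 with limma on TPM, 33 with library size only and 21 to 29 with 1 library left out. In TOM- DC2 against adults, 42 members became 39 to 42 with 1 library left out. The 10 above a log2FC of 1 became 24 with library size only, 19 and 20 with limma on log2(TPM + 1) and log2(TPM + 0.1), 6 with the replicate block and 7 to 14 with 1 library left out, the highest without adult library 92 and the lowest without adult library 95. Between the young groups, 0 members became 1 with DESeq2, 12 with the replicate block, 23 with the block in the 6 young libraries, 2 with the block leaving out TOM- library 81, 11 with the block in pairs 91 and 92 alone, and 0 to 1 with 1 library left out (Pold2, without adult library 95). The ratio of summed levels, 1.991 and 1.81, was 1.862 and 1.65 with TMM-scaled counts, and with 1 library left out 1.95 to 2.046, 1.778 to 1.86 and, for TOM+ against TOM-, 1.078 to 1.12. The causes were not tested.

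Changes of sign were found in members whose values were near 0 and did not pass. For young against adult TOM+ cDC2, Orc4 was at -6.38e-06 under a minimum of 10 for the average count, -0.024 with the replicate block and -0.0488 to 0.163 with 1 library left out. For TOM- DC2 against adults, Orc4 was at -0.0196 with the replicate block and -0.0407 to 0.172 with 1 library left out. Gins3 was at 0.20 with library size only, 0.142 and 0.149 with limma and -0.0931 to 0.05 with 1 library left out, and Pold2 at -0.0133 with the replicate block and -0.0273 to 0.285 with 1 library left out. For TOM+ against TOM-, Orc3 was at 0.0146 with RSEM counts and -0.0628 to 0.0686 with 1 library left out, and Pcna at -0.0119 with library size only and -0.0711 to 0.0754 with 1 library left out. With 1 library left out Orc1 ranged from -0.0317 to 0.245, Orc4 from -0.0759 to 0.0641 and Orc5 from -0.00518 to 0.12. Each group has 3 libraries, which limits the precision of all these values.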
